A study of Mus musculus with 30 samples.

Results

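The cytochrome P450 family was followed in the livers of mice that were force-fed chicory root decoctions, inulin or water. The members were the 50 genes, of 8996 genes measured on the array, whose symbol begins with Cyp and a digit, after 10 P450 genes had been set aside: Cyp2b13, Cyp2d9, Cyp3a41b, Cyp3a44, Cyp51, Cyp7b1 and 4 genes of the Cyp4a subfamily. They had 78 probes, and for the 11 genes with several probes the one with the highest mean was kept. All mice were 8 weeks old at the start, ate standard chow, and were gavaged with 500 µl a day for 30 days, after which liver RNA was hybridised to 1-colour arrays. The first experiment held mice given G35, mice given G12 (decoctions of the root flour of these chicory genotypes, at 10 mg root powder per mouse per day) and water controls (control 1). The second held mice given inulin at 6.9 mg per mouse per day, a dose set by the inulin content of the G35 roots, and their own water controls (control 2). Each group had 3 females and 3 males, so that 10 groups of sex and gavage filled 30 arrays. The strain is not given in the sources used here, and nothing says whether mice shared a cage, so p-values measure the spread between these mice.

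P450 enzymes are heme proteins that use electrons from NADPH to add oxygen to their substrates, and liver holds more of them than other organs. Subfamilies 2A to 2E and 3A mainly clear drugs, plant compounds and steroids, families 2J and 4F oxidise fatty acids and eicosanoids, and families 7, 8, 27 and 39 turn cholesterol and oxysterols into bile acids. In mouse liver many of these genes differ by sex under the control of the pattern of growth hormone release, acting through STAT5b, and the nuclear receptors CAR and PXR raise Cyp2b10 and Cyp3a11 when foreign compounds arrive.

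Promoters were printed for a pair of Cyp2b genes that were both higher in females and for a pair of Cyp2c genes that differed between the sexes in opposite directions. The windows run from 250 bases before to 50 bases after the start of the gene, 5′ to 3′ on the strand of the gene, from RefSeq with the coordinates of build GRCm38.p6. Capitals mark the nuclear receptor half-site AGGTCA or its reverse complement TGACCT. Cyp2b9 is at chr7:26173159-26173458 and Cyp2b10 at chr7:25897408-25897707, both on the plus strand. Cyp2c37 is at chr19:39992174-39992473 on the plus strand and Cyp2c67 at chr19:39648993-39649292 on the minus strand.
Cyp2b9: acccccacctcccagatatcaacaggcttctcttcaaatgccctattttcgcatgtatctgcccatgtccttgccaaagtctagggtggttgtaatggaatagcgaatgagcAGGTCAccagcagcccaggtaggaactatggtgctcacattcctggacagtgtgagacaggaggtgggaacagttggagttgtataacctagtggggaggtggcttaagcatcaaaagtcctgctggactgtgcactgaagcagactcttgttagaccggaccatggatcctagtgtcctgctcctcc
Cyp2b10: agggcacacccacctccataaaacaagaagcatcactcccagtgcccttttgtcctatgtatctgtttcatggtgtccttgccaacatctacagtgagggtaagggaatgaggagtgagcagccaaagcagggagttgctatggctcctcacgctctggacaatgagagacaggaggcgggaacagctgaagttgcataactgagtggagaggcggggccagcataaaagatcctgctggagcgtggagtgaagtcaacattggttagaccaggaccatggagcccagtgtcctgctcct
Cyp2c37: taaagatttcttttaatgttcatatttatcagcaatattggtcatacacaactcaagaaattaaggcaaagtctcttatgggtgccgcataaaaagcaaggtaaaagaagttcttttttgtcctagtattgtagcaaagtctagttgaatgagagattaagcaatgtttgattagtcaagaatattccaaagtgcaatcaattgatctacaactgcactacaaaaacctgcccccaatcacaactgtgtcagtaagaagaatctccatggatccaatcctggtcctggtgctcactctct
Cyp2c67: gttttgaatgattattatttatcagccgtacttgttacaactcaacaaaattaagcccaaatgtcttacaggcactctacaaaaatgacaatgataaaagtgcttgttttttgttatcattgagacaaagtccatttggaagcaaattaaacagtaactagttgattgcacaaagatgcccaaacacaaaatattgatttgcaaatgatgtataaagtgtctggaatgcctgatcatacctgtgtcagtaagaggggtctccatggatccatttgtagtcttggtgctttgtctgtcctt
The Cyp2b9 window held 1 half-site, starting at base 113 of the window, and the other windows held none. Aligned globally, the windows of Cyp2b9 and Cyp2b10 were identical at 230 of 314 columns (73.2%), and those of Cyp2c37 and Cyp2c67 at 208 of 318 columns (65.4%). The 36 pairs among 9 promoters of genes that differed by sex had identities of 43.4% to 73.2% with a median of 48.8%. Of the 50 members, 38 matched a RefSeq promoter, with 44 windows. The half-site was in 13 of these 44 windows (29.5%) and in 16.3% of all 32851 promoters of this length, and the STAT5-type motif TTCNNNGAA was in 1 of 44 (2.27%), that of Cyp4f13, against 8.3% of all. These are matches of letters on both strands and do not show binding.

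Raw signals ran from 39 to the scanner's maximum, and the median of an array lay between 141 and 511. Hepatocyte markers were high on every array, with a mean over 7 of 8 listed genes of 14.16 to 14.82 log2 units. Of the P450 genes, 2 were below the 25th percentile of all genes measured and 39 were above the median gene. On these bulk samples fewer cells of a type and less RNA per cell cannot be told apart. The median standard deviation within a group was 0.36 log2 units over the P450 genes (0.16 to 1.01) and 0.23 over all genes, so the family varied more between mice of a group than most genes. Levels are log2 intensities after background correction and quantile normalisation, differences are in log2 units with the standard error (SE), and a gene was called when limma's adjusted p over all 8996 genes was under 0.05.

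Some arrays stood apart, and the P450 results that move with them are given with and without those arrays. On G12 female 2 a patch of 876 features was dim, with a median deviation of neighbouring features as low as -3.53 log2 units, and it covered the kept probes of Cyp2c50, Cyp2c67, Cyp2d13, Cyp3a16 and Cyp4v3. Cyp2c50, for example, read 11.67 on that array and 14.23 and 13.98 on the arrays of the other G12 females. At the edge of the arrays of control 1 female 3 and control 2 female 1, Cyp2d34 read 7.54 and 8.36, while the other females of those groups read 11.17 to 11.57, and Cyp2c39 read 11.28 and 10.14. Bright features at that edge had median deviations of -0.68 and -1.53 there. Cyp2j13, away from the edge, also read low on those arrays, at 6.65 and 6.63 against 7.08 to 7.58 in the other control females. Cyp2d34 read 9.84 on G12 female 3 and 9.52 on G35 female 3, where the edge medians were -0.05 and -0.11. What set these low readings was not tested. The pancreatic genes Ctrb1 and Amy2a5, the 2 of 9 listed acinar markers that were measured, averaged 14.62 on G12 male 1, 13.80 on G12 female 2 and 13.78 on G35 female 2. The RNA on those arrays thus held pancreatic transcripts, and 39 of 50 P450 genes on G12 male 1 lay under the mean of its group, with a median deviation of -0.30. On G12 female 2 it was 28 of 50 (median -0.05) and on G35 female 2 it was 24 of 50 (median 0.01), while control 1 female 1, where the pancreatic mean was 7.76, had 34 of 50 under its group's mean (median -0.21).

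**Figure D1:**
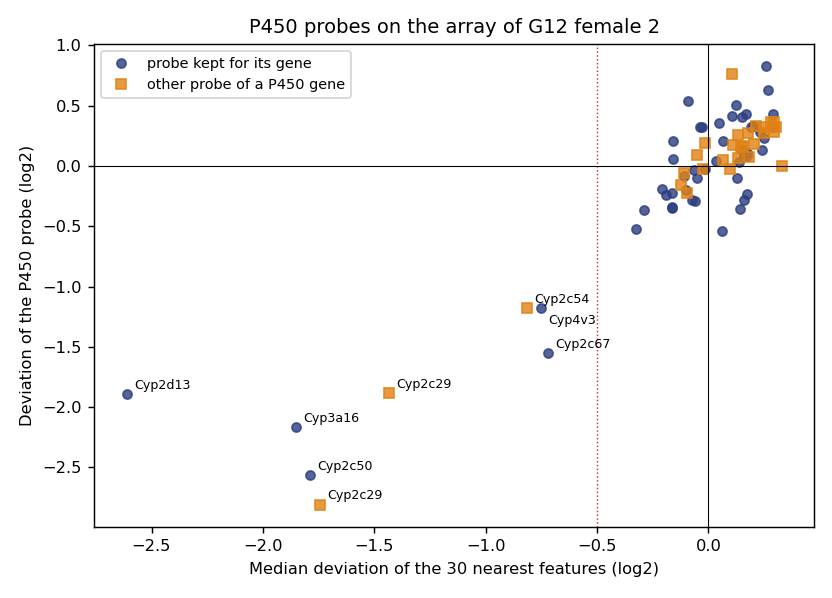
P450 probes on the array of G12 female 2. Each point is a probe, with its deviation from the median of the other female arrays of the first experiment (log2 units, vertical) against the median deviation of its 30 nearest features (horizontal). The dotted line is at -0.5. The probes of Cyp2d13, Cyp3a16, Cyp2c50, Cyp2c67, Cyp4v3 and 3 further probes of Cyp2c29 and Cyp2c54 lie left of it, and all are below 0 on the vertical axis.

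The first question was how the family differed between the sexes. Among the water controls, 13 of 50 P450 genes (26.0%) were called, 6 higher in females and 7 lower, while 5.46% of all genes were called, 2.60% higher and 2.86% lower. Among gavaged mice, 17 of 50 (34.0%) were called, 7 higher in females and 10 lower, against 13.8% of all genes, 5.58% higher and 8.24% lower. These sets share no mice. Of the called genes, 12 were called in both, all 12 in the same direction, which is 92.3% of those called in the controls and 70.6% of those called in the gavaged mice. Over all 50 members 39 had the same sign in both.

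The 2B subfamily, whose enzymes clear drugs and steroids and are induced through CAR, was higher in females. Cyp2b9 ran from 7.54 to 9.31 with a median of 8.35 in the 6 female water controls, and from 5.91 to 6.96 with a median of 6.36 in the 6 males. Every female was above every male, and the difference was 2.04 (SE 0.19, adjusted p = 7.49e-08), a 4.10-fold higher level. In gavaged mice Cyp2b9 ran from 7.92 to 8.97 in 9 females and from 6.09 to 7.31 in 9 males, again without overlap, and differed by 1.80 (adjusted p = 1.32e-08). Cyp2b10 ran from 12.39 to 13.32 with a median of 12.94 in female water controls and from 9.89 to 12.36 with a median of 11.04 in males, without overlap. It was 3.60-fold higher in control females (1.85, SE 0.21, adjusted p = 2.37e-06) and 2.71-fold higher in gavaged females (adjusted p = 4.04e-06), where the ranges overlapped.

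Cyp2a4, a steroid 15-alpha-hydroxylase in mice, ran from 14.77 to 15.54 with a median of 15.06 in female water controls and from 13.14 to 14.87 with a median of 14.23 in males. The ranges overlapped slightly, and the level was 1.97-fold higher in control females (0.98, SE 0.22, adjusted p = 0.00648) and 2.08-fold higher in gavaged females (adjusted p = 0.000239). Cyp2a4 has a close paralog, Cyp2a5, and how much of its signal a probe takes from such copies was not tested. Cyp2f2, which activates naphthalene, went the other way: it ran from 12.64 to 14.10 with a median of 13.07 in control females and from 13.82 to 14.47 with a median of 14.17 in control males. Its difference was -0.95 (SE 0.18, adjusted p = 0.00145) in controls and -1.21 (adjusted p = 4.04e-06) in gavaged mice, in which every female was below every male. With slide in the fit the call in controls was lost (-0.53, adjusted p = 0.0712). Of the 6 genes measured in this group, Cyp2a12 and Cyp2g1 were called in neither set.

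In the 2C subfamily, which oxidises drugs and arachidonic acid, the sexes differed in both directions. Cyp2c37 ran from 12.56 to 13.53 with a median of 13.04 in control females and from 10.99 to 11.90 with a median of 11.16 in control males. The sexes did not overlap in controls or in gavaged mice (12.50 to 13.13 in females, 9.77 to 11.80 in males), and the level was 3.43-fold higher in control females (1.78, SE 0.20, adjusted p = 1.03e-06) and 4.48-fold higher in gavaged females (2.16, SE 0.16, adjusted p = 5.56e-10). Cyp2c67, the gene whose promoter is printed beside it, was lower in females: 11.15 to 12.95 with a median of 12.04 in control females, and 12.04 to 13.25 with a median of 12.93 in control males. The difference was -0.75 in both sets (adjusted p = 0.0481 in controls, 0.00775 in gavaged mice), and the ranges overlapped. In gavaged mice it was -0.57 (adjusted p = 0.00991) without G12 female 2, on which the kept probe lay in the dim patch. The call in controls held under 11 of 24 alternatives. It was lost with replicate number as a block (-0.75, adjusted p = 0.0508) and without any of 9 of the 12 control mice, the furthest without control 2 male 1 (-0.64, adjusted p = 0.131). The mice whose removal kept the call were control 1 female 2, control 2 male 2 and control 2 female 3.

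Cyp2c39, a retinoic acid hydroxylase in mice, and Cyp2c68 were called in gavaged mice only, at 1.19 (adjusted p = 0.0118) and -0.67 (adjusted p = 0.00385). In controls they differed by 0.40 and -0.40. The control value of Cyp2c39 held the edge readings of 11.28 and 10.14, while the other 4 control females read 12.64, 12.72, 12.88 and 13.29, above all control males (11.03 to 12.45). With the edge readings left out, Cyp2c39 was higher in control females by 1.13 (adjusted p = 0.00771) and was called. That fit drops the lowest readings of the control females, and what lowered them was not tested. With slide as a term in the fit, the differences in gavaged mice were 0.01 (adjusted p = 0.982) for Cyp2c39 and -0.23 (adjusted p = 0.538) for Cyp2c68. The arrays with the edge readings are on slides 1 and 10, which hold both sexes. Of the 10 genes measured in the 2C subfamily, 2 were called in controls and 4 in gavaged mice. Cyp2c38 was not among them, with 0.14 in controls and 0.12 in gavaged mice for its kept probe. Its other, dimmer probe gave 1.16 and 1.51. Cyp2c70, the mouse enzyme that makes muricholic acids, was called in neither set without slide (0.20 in controls, 0.18 in gavaged mice), and with slide it was higher in females by 1.22 (adjusted p = 0.00304) in controls and by 1.62 (adjusted p = 0.00157) in gavaged mice. Control 1 female 3 and control 2 female 1, on slides 1 and 10, read 12.55 and 12.70, and the other 4 control females 10.53 to 11.00. Without slide, the control difference was -0.10 without the first of these mice and -0.13 without the second.

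In the 2D subfamily, which oxidises many drugs, the genes called without slide in the fit were lower in females. All 9 measured genes had a lower mean in gavaged females than in gavaged males, with a median of -0.31 (all genes -0.02), and 7 of 9 had a lower mean in control females, with a median of -0.22, Cyp2d26 (0.30) and Cyp2d37-ps (0.20) being higher. In gavaged mice 3 of the 9 were called, Cyp2d11, Cyp2d12 and Cyp2d13. Cyp2d11 ran from 13.66 to 14.62 with a median of 14.30 in control females and from 14.73 to 15.35 with a median of 14.88 in control males. The sexes did not overlap, and the difference was -0.77 (SE 0.14, adjusted p = 0.00103) in controls and -1.15 (SE 0.11, adjusted p = 1.45e-07) in gavaged mice. Cyp2d12 ran from 11.77 to 12.88 in control females and from 12.67 to 13.18 in control males, and differed by -0.73 (adjusted p = 0.00445) and by -0.67 (adjusted p = 0.000968) in gavaged mice. Cyp2d13 was called in gavaged mice only (-0.67, adjusted p = 0.0194), and its difference was -0.47 (adjusted p = 0.0187) once the values in the dim patch were left out. Cyp2d22 missed the threshold in controls (-0.76, adjusted p = 0.0641) and passed it with slide in the fit (-1.25, adjusted p = 0.00308). With slide, Cyp2d26 and Cyp2d34 were also called in controls, and Cyp2d34 in gavaged mice. On slides 1, 4 and 10, Cyp2d26 read 15.82, 14.90 and 15.74 in control females and 15.35, 14.66 and 15.04 in control males. Without slide, the kept Cyp2d34 probe gave -0.87 in controls and -0.22 in gavaged mice. The other, dimmer Cyp2d34 probe gave -2.46 and -2.64.

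**Figure D2:**
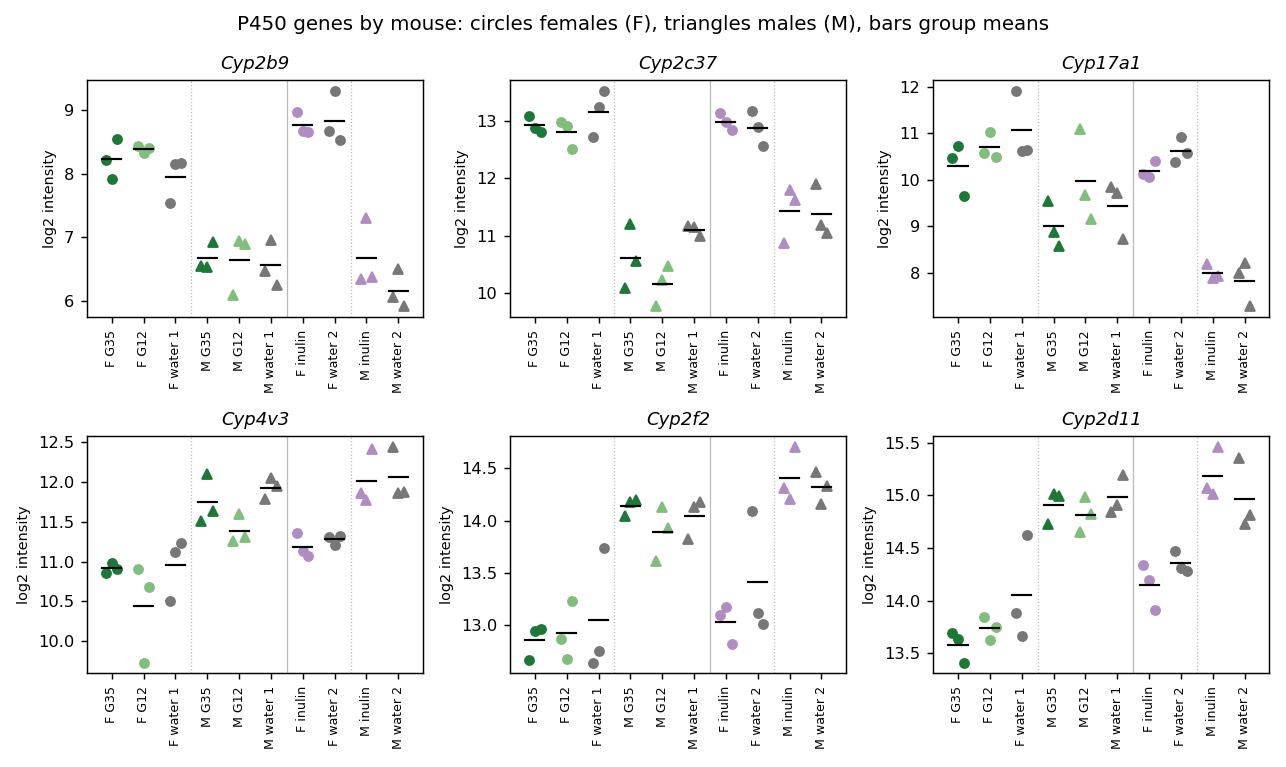
Levels of 6 P450 genes in every mouse (log2 intensity, vertical axis, on a separate scale for each gene), by sex and gavage. Circles are females, triangles males, and bars the means of 3 mice. Cyp2b9 and Cyp2c37 are higher in females in every group, and Cyp2d11 is lower in females in every group.

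Fatty acid and eicosanoid P450s were lower in females where they differed. Cyp4v3, a fatty acid omega-hydroxylase, ran from 10.51 to 11.32 with a median of 11.22 in control females and from 11.79 to 12.44 with a median of 11.91 in control males, without overlap. Its difference was -0.88 (SE 0.17, adjusted p = 0.00198) in controls and -0.87 (adjusted p = 0.000132) in gavaged mice, or -0.75 (adjusted p = 0.000103) without the dim patch. Cyp4f14, which degrades leukotriene B4, ran from 9.68 to 11.11 with a median of 10.40 in control females and from 10.39 to 11.52 with a median of 11.26 in control males. The difference was -0.69 (adjusted p = 0.00374) in controls and -0.47 (adjusted p = 0.0083) in gavaged mice, where slide in the fit ended the call (-0.45, adjusted p = 0.0859). Its relatives Cyp4f13 (-0.46, adjusted p = 0.0391) and Cyp4f17 (-0.43, adjusted p = 0.0223) were called in gavaged mice only. Both calls depended on single mice. That of Cyp4f13 held under 18 of 30 alternatives and was lost without any of 11 of the 18 gavaged mice, the furthest without inulin male 1 (-0.38, adjusted p = 0.0946). Cyp4f17 was lost without G35 male 3 (adjusted p = 0.0538), inulin male 1 (0.0545) or inulin male 2 (0.0547). Of the 10 genes measured in this class, the 5 of the 2J subfamily were called in neither set without slide. With slide in the fit, Cyp2j13 was called in both sets. On slides 1, 4 and 10 it read 6.65, 7.57 and 6.63 in control females and 7.33, 7.71 and 7.16 in control males.

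Cyp3a11, the main PXR-induced P450 of mouse liver, was called in controls only. It ran from 13.47 to 13.94 with a median of 13.60 in control females and from 13.65 to 14.72 with a median of 14.37 in control males, and was 1.55-fold lower in females (-0.63, SE 0.17, adjusted p = 0.0292). The difference was -0.19 in gavaged mice and not called. The call in controls held under 13 of 24 alternatives, and was lost without any of 8 of the 12 control mice, the furthest without control 1 male 2 (-0.52, adjusted p = 0.0992). The mice whose removal kept it were control 1 male 3, control 1 female 2, control 2 male 2 and control 2 female 3. The mean of both Cyp3a11 probes gave -0.36 (adjusted p = 0.421). The other 5 genes measured in the 3A subfamily were called in neither set.

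Of the kept probes, that of Cyp17a1 had the largest difference among the water controls. Cyp17a1, the steroid 17-alpha-hydroxylase and 17,20-lyase, ran from 10.38 to 11.93 with a median of 10.64 in control females and from 7.27 to 9.85 with a median of 8.46 in control males. Every control female was above every control male, and the level was 4.67-fold higher (2.22, SE 0.29, adjusted p = 1.75e-05). In gavaged mice it was 2.64-fold higher in females (1.40, SE 0.24, adjusted p = 0.000267), and the ranges overlapped, with the highest male value, 11.10, on G12 male 1, the array with the most pancreatic transcript. Cyp39a1, the 24-hydroxycholesterol 7-alpha-hydroxylase, ran from 10.31 to 10.94 with a median of 10.53 in control females and from 8.09 to 9.53 with a median of 8.63 in control males. It was 3.65-fold higher in control females (1.87, SE 0.24, adjusted p = 1.29e-05) and 3.27-fold higher in gavaged females (adjusted p = 1.77e-06). The bile acid genes Cyp7a1, Cyp8b1 and Cyp27a1 were called in neither set.

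The slides limit these sex comparisons, because females and males shared a slide only on slides 1, 4 and 10. Gavaged females and gavaged males shared only slide 4, where the gavaged female was G12 female 2. Without that mouse, no slide held gavaged mice of both sexes. Slides 1, 4 and 10 each carried a control female and a control male. On each of them, all 13 genes called in controls differed in the direction of the main fit. These mice also entered the fit that called the genes, so the direction was partly fixed in advance. The control males there were in block 4 and the control females in block 1 or 2, so sex and position cannot be told apart. With slide in the fit, 16 P450 genes were called in controls (background 12.6%), 11 of them among the 13, and 17 in gavaged mice (background 11.4%), 14 of them among the 17. With slide and without G12 female 2, 12 of the 13 genes kept their call in controls and 6 of the 17 in gavaged mice. Pancreatic transcripts also differed between control sexes, with means of 9.09 in females (7.76 to 11.31) and 7.89 in males (7.77 to 8.05), and their part in the result was not tested.

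**Figure D3:**
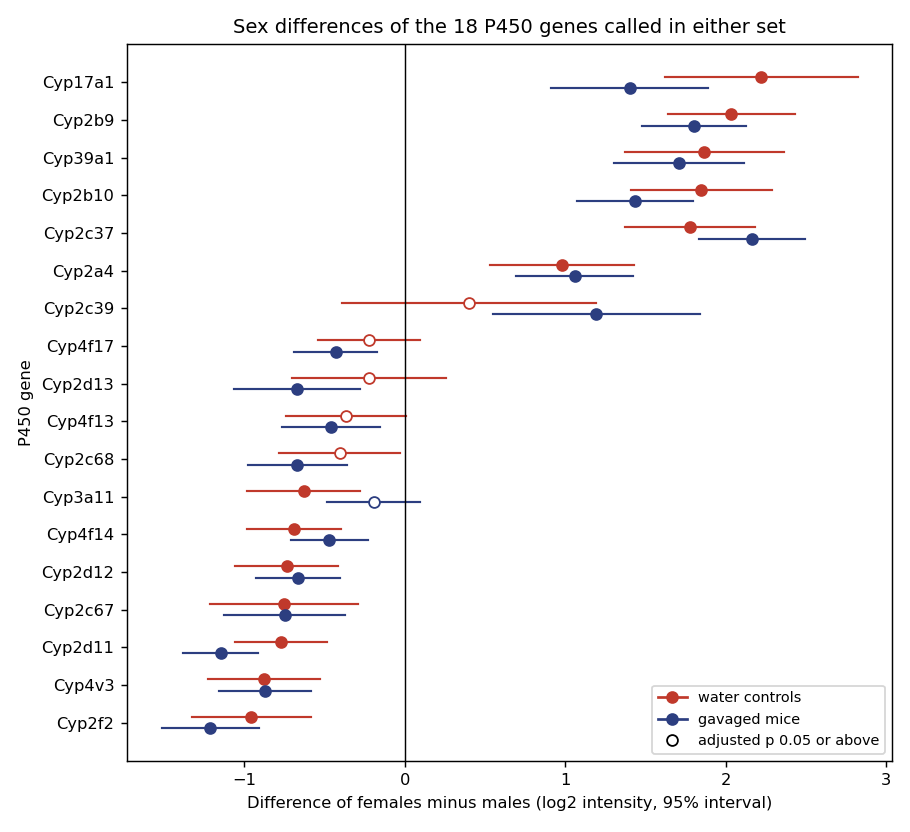
Differences of females minus males (log2 intensity, horizontal axis, with 95% intervals) for the 18 P450 genes called in water controls (red) or gavaged mice (blue). Filled points had an adjusted p under 0.05. Genes from Cyp17a1 to Cyp2a4 are higher in females in both sets, and 12 genes are filled in both colours.

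Genes that regulate or serve P450s were read from a list of 72 regulators, electron donors, heme enzymes and other bile acid genes, of which 62 were measured. In control mice 3 of the 62 were called between the sexes, while 5.46% of all genes were. Tox (1.11) and Stat5a (0.51) were higher in females, and the repressor Nfil3 (-1.02) was lower. In gavaged mice 10 of the 62 were called, 6 higher in females and 4 lower, while 13.8% of all genes were. Both counts are near the share of all genes, so they are no result about the list. Tox, a chromatin protein known to be female-biased in mouse liver, was again among the higher ones (1.04), with Ahr, the aryl hydrocarbon receptor, at 0.75. Nfil3 (-0.43) was again lower, with Dbp, a clock factor that drives P450 genes, at -0.51. The measured electron donors Cyb5a, Cyb5b, Cyb5r1, Cyb5r3 and Fdx1 were called in neither set, and the P450 reductase Por was not among the measured genes.

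The next question was whether the chicory decoctions or inulin changed the family. No P450 gene was called in any gavage comparison. The backgrounds were equally sparse: for G35 against water, averaged over the sexes, 5 genes of 8996 (0.0556%) were called (0.0445% higher, 0.0111% lower), and for G12 and for inulin 0%. Within sexes the background was 0.0111% for G35 in males, 0% for G35 in females, 0% for G12 in males, 0.0778% for G12 in females and 0% for inulin in either sex. At an unadjusted p under 0.05, 2 of 50 P450 genes passed for G35 (7.87% of all genes did), 10 of 50 for G12 (5.21% of all genes) and 0 of 50 for inulin (1.98% of all genes). Within sexes the counts were 1 of 50 for G35 in males and 5 in females (5.87% and 8.05% of all genes), 5 for G12 in males and 9 in females (3.94% and 11.0%), and 2 for inulin in either sex (2.07% in males, 3.63% in females). Without G12 female 2 the count for G12 in females was 4 (7.64% of all genes). With the dim areas left out it was 5 (8.84%). Over both sexes the G12 count was 8 without G12 female 2 (4.59%) and 9 without G12 male 1 (5.99%). The G35 and G12 comparisons share their water controls.

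The intervals show how large a change the data still allow. The 95% interval of the difference stayed within 2-fold in either direction for 45 of 50 P450 genes with G35, 40 with G12 and 45 with inulin, against 97.3%, 96.7% and 97.2% of all genes. By sign of the difference, the 50 genes split into 23 higher and 27 lower with G35 (median -0.05), 19 and 31 with G12 (median -0.05), and 31 and 19 with inulin (median 0.06). Of all genes, 47.4%, 52.0% and 45.3% were higher.

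**Figure D4:**
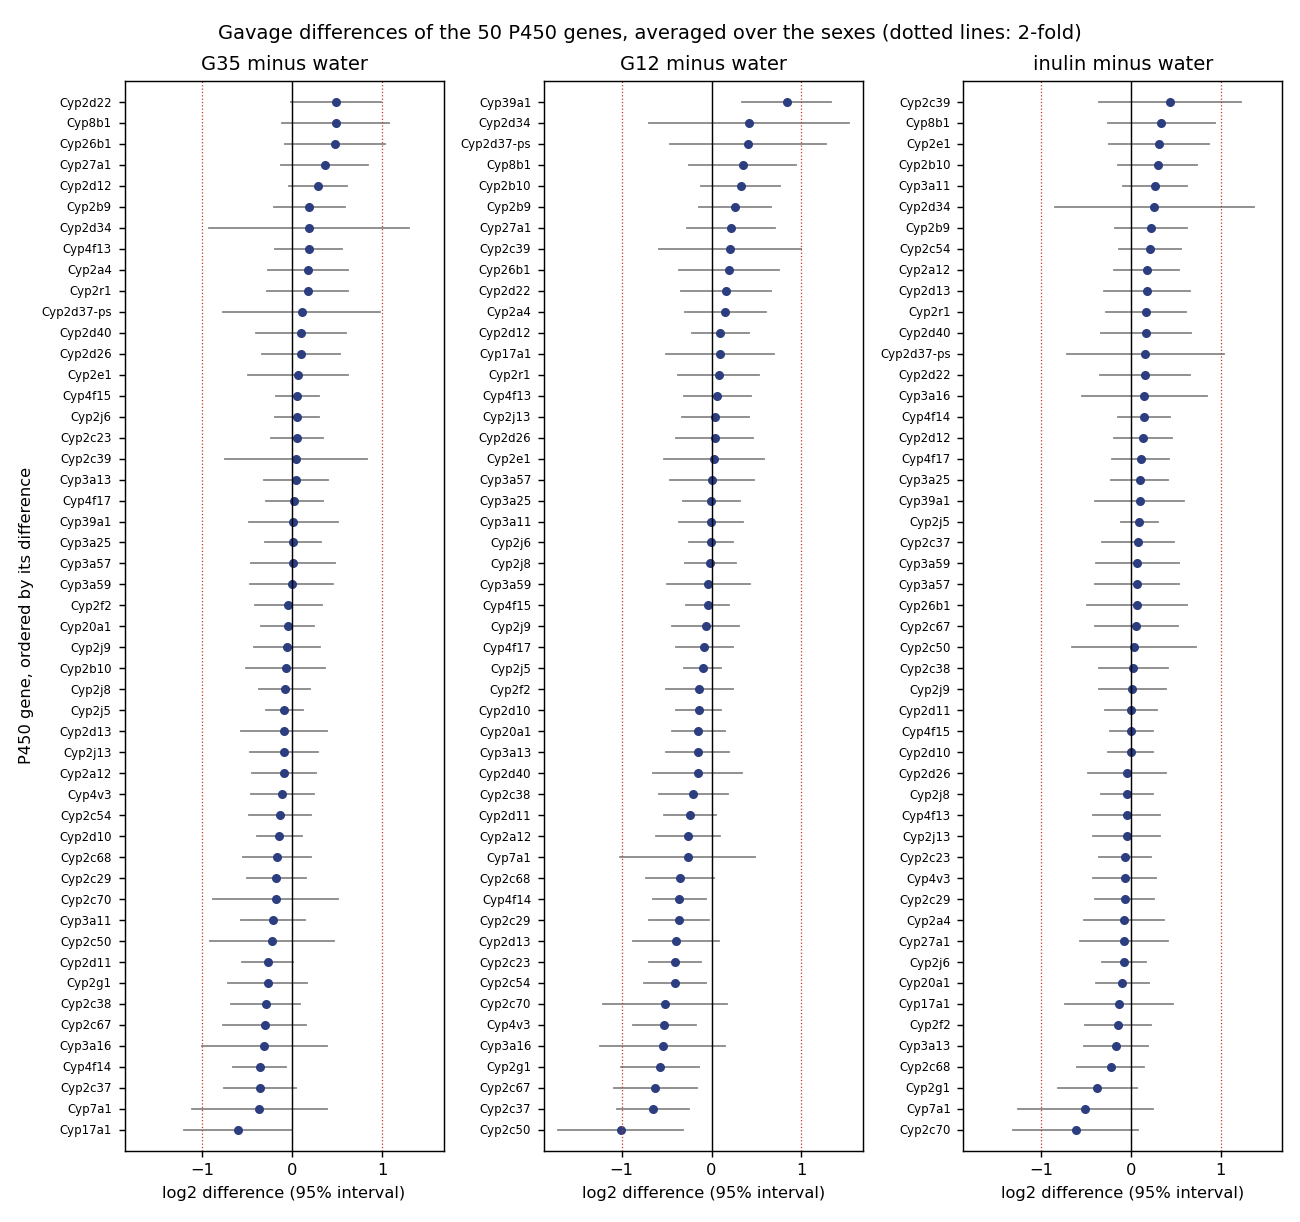
Gavage differences of the 50 P450 genes (treated minus water, log2 units, horizontal axis), averaged over the sexes, with 95% intervals and genes ordered by difference. Dotted lines mark 2-fold. No gene was called in any panel, and the outermost points are Cyp39a1 at 0.84 and Cyp2c50 at -1.01 in the G12 panel.

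With G35, the lowest p belonged to Cyp4f14. It read 10.56, 10.46 and 10.60 in G35 females against 10.90, 11.11 and 10.92 in water females, and 10.97, 11.31 and 11.00 in G35 males against 11.28, 11.52 and 11.32 in water males. All G35 females were below all water females, and 1 of 3 G35 males was within the range of the water males. The difference was -0.36 (SE 0.14, adjusted p = 0.522). It was lower on all 4 slides that held G35 and water mice of the same sex, taking the mean where a slide held several.

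Cyp17a1 read 10.48, 10.73 and 9.66 in G35 females against 11.93, 10.63 and 10.64 in water females, and 9.55, 8.88 and 8.58 in G35 males against 9.85, 9.71 and 8.73 in water males. The groups overlapped in both sexes, and the difference was -0.60 (SE 0.29, adjusted p = 0.632). Cyp2d22, at 0.49 (SE 0.24, adjusted p = 0.64), was higher on 4 of 4 such slides. With slide in the fit and G12 female 2 left out, both passed (Cyp17a1 -0.94, adjusted p = 0.0493; Cyp2d22 0.81, adjusted p = 0.0426), in a fit that called 3.45% of all genes. Cyp2d11 (-0.27), Cyp2c37 (-0.36) and Cyp2c38 (-0.29) were the other low ones, and Cyp2d12 (0.29), Cyp26b1 (0.48), Cyp8b1 (0.48) and Cyp27a1 (0.36) the high ones, with adjusted p of 0.653 to 0.77. The other probe of Cyp2c38 gave 0.18, and that of Cyp2c37 -0.10. Without G35 female 2, the array rich in pancreatic transcript, Cyp4f14 was -0.34, Cyp17a1 -0.71 and Cyp2d22 0.50, and none was called.

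Acute phase transcripts, made by hepatocytes in inflammation, moved with G35. The mean over 8 of 8 listed genes was 11.85 in G35 mice (10.39 to 13.21) and 10.36 in water mice (10.09 to 10.79), and all 8 genes were higher, with a median difference of 1.02 and 1 of them called, Saa3 (0.96, adjusted p = 0.0255). The 9 measured targets of CAR and PXR were not called with G35: 3 were higher and 6 lower, with a median of -0.13, and Cyp2b10 (-0.07) and Cyp3a11 (-0.21) were among the lower ones. What part the acute phase had in the P450 values was not tested. Of the regulators, Nfil3, a repressor that opposes Dbp, was called with G35. It read 9.39, 8.81 and 9.67 in G35 females against 8.20, 8.02 and 7.88 in water females, and 9.41, 9.37 and 9.75 in G35 males against 8.94, 8.75 and 8.87 in water males. The groups did not overlap in either sex, and the difference was 0.95 (SE 0.16, adjusted p = 0.014). Nr1i2, which encodes PXR, was 0.70 higher (adjusted p = 0.286), and 0.97 (adjusted p = 0.0298) with slide in the fit.

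With G12, the lowest p belonged to Cyp39a1, the oxysterol hydroxylase. It read 10.86, 11.17 and 12.01 in G12 females against 10.74, 10.52 and 10.54 in water females, and 9.25, 10.30 and 9.59 in G12 males against 8.73, 9.53 and 8.09 in water males. Every G12 female was above every water female, while the males overlapped. The level was 1.79-fold higher (0.84, SE 0.24, unadjusted p = 0.00186) and was not called over all genes (adjusted p = 0.743). It was higher on all 4 slides that held G12 and water mice of the same sex, and stood at 0.95 without G12 male 1 and 0.88 without G12 female 2.

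In the 2C subfamily, 9 of 10 measured genes had a lower mean with G12, with a median of -0.41, against a median of -0.05 over the family and 0.01 over all genes. In males 10 of 10 were lower, with a median of -0.58. Cyp2c37 read 9.77, 10.24 and 10.47 in G12 males against 11.16, 11.15 and 10.99 in water males, without overlap. The difference was -0.94 (SE 0.28, adjusted p = 0.744), and -0.75 without G12 male 1. Cyp2c54 read 12.21, 12.48 and 12.97 in G12 males against 13.42, 13.38 and 13.20 in water males, also without overlap (-0.78, adjusted p = 0.805), and -0.61 without G12 male 1. Cyp2c29, an abundant drug and fatty acid oxidase, read 12.75, 13.28 and 13.33 in G12 males against 13.73, 14.00 and 13.51 in water males (-0.62, SE 0.22, adjusted p = 0.999). All 10 Cyp2c29 probes were lower there, with differences of -0.71 to -0.49. All 3 control 1 males were in block 4 of their slides and no G12 or G35 male was, so position on the slide and gavage cannot be told apart in these males.

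Markers of another cell type moved with these values. Pancreatic transcripts averaged 12.22 in G12 males (10.72 to 14.62) and 7.96 in water males (7.90 to 8.05), and 11.27 in G12 females (7.74 to 13.80) and 9.97 in water females (7.76 to 11.31), and their part in the 2C values was not tested. Acute phase transcripts also moved with G12, with a mean of 11.35 in G12 females (11.04 to 11.78) and 10.46 in water females (10.27 to 10.79), which did not overlap, and 10.62 in G12 males (10.11 to 10.89) and 10.27 in water males (10.09 to 10.50). Their part in the Cyp39a1, Cyp8b1 and Cyp2c23 values was not tested. Without G12 male 1, the counts for the whole family in males were 19 higher and 31 lower with a median of -0.03, and with all mice 12 higher and 38 lower with a median of -0.16. In G12 females the values of Cyp2c50 (-1.22), Cyp2c67 (-0.72) and Cyp2d13 (-0.79) were -0.41, -0.20 and -0.19 with the dim patch left out, while another Cyp2c67 probe, outside the patch, gave -0.50. Over both sexes Cyp2c50 was -1.01 (adjusted p = 0.886) with it and -0.60 (adjusted p = 0.999) without, Cyp2c67 -0.63 and -0.36, and Cyp4v3 -0.53 and -0.35. With slide in the fit, Cyp2d13 was the 1 P450 gene called in G12 females (-1.05, adjusted p = 0.0416, against 4.55% of all genes). It read 7.99, 5.74 and 7.10 in G12 females against 8.04, 7.69 and 7.47 in water females, and its call was lost without G12 female 2 (adjusted p = 0.815).

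Cyp2c23, an arachidonic acid epoxygenase in mice, did not rest on the patch. It read 6.99, 6.86 and 6.99 in G12 females against 7.39, 7.42 and 7.70 in water females, without overlap, and 6.66, 7.12 and 7.29 in G12 males against 7.23, 7.14 and 7.46 in water males. The difference was -0.41 (SE 0.14, adjusted p = 0.886), and it was lower on 4 of 4 such slides. The targets of CAR and PXR were not called with G12 either, with 2 higher and 7 lower and a median of -0.16. Among these Cyp2b10 was 0.32 higher (adjusted p = 0.958) and Cyp3a11 had a difference near 0 with a 95% interval of -0.36 to 0.35.

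With inulin, no P450 gene passed even the unadjusted threshold when the sexes were averaged. Cyp2c70 (-0.61, SE 0.34) and Cyp2g1 (-0.37, SE 0.21) were the lowest and Cyp3a11 (0.27, SE 0.17) and Cyp2b10 (0.30, SE 0.21) the highest by p. The other Cyp3a11 probe gave -0.01 over both sexes. In females it gave -0.48, against 0.45 for the kept probe. Cyp2c70 was -0.28 without control 2 female 1, which read 12.70 while the other control 2 females read 10.53 and 10.88. Cyp2g1 was -0.25 without that mouse. In males, Cyp2b10 read 10.79, 11.20 and 10.84 with inulin against 10.22, 10.66 and 9.89 with water, without overlap. The difference was 0.69 (SE 0.30, unadjusted p = 0.0313) and was not called. Control 2 male 2 had an acute phase mean of 12.70, and the other control 2 males 9.68 and 10.06. Without it, Cyp2b10 differed by 0.89 and Cyp3a11 over both sexes by 0.16. In females it read 12.99, 13.00 and 12.68 with inulin against 13.06, 12.90 and 12.97 with water (-0.09). The 9 CAR and PXR targets were 7 higher and 2 lower over both sexes, with a median of 0.10 and none called. All inulin males were in block 2 of their slides and all control 2 males in block 4, so position on the slide and gavage cannot be told apart in males.

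Among the bile acid genes, Cyp7a1, the rate-limiting enzyme, read 9.53, 9.18 and 10.11 in inulin males against 10.52, 10.38 and 11.44 in control 2 males. The groups did not overlap, so inulin was necessarily lower on all 3 shared slides. The difference was -1.17 (SE 0.51, unadjusted p = 0.0319), not called over all genes. It was -1.37 without control 2 male 2. In inulin females the difference was 0.16, and 0.43 without control 2 female 1. With G35 it read 9.78, 9.04 and 7.61 in females against 9.06, 10.16 and 11.01 in control 1 females, which overlapped, and the difference of -1.27 (SE 0.51, adjusted p = 0.513) was -0.30 with slide in the fit. In G35 males it was 0.54. The difference between the sexes in the G35 effect was -1.81 (SE 0.73, adjusted p = 0.757), and no P450 gene was called in any of the 3 such comparisons (backgrounds 0.0222% for G35, 0.0333% for G12 and 0% for inulin), with 3, 2 and 0 of 50 at an unadjusted p under 0.05.

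Cyp8b1, which sets the share of cholic acid, read 9.23, 9.51 and 9.01 in G12 females against 8.19, 8.83 and 8.03 in control 1 females. These did not overlap, and the difference was 0.90 (SE 0.41, adjusted p = 0.404). In G12 males it was -0.21, and with G35 it was 0.48 over both sexes and higher on 4 of 4 shared slides, or 0.32 (adjusted p = 0.83) without G35 female 2. Cyp27a1, the mitochondrial sterol 27-hydroxylase, read 9.17, 9.42 and 9.02 in G35 females against 8.21, 8.90 and 8.69 in control 1 females, without overlap (0.60, SE 0.33, adjusted p = 0.679), and in G35 males it was 0.12. Its 10 probes were read at different places on each array, and all 10 were higher with G35, by 0.32 to 0.44 over both sexes and 0.47 to 0.60 in females. All 10 were also higher with G12, by 0.21 to 0.44 over both sexes and 0.58 to 0.90 in females, where the kept probe was not called (0.58, adjusted p = 0.549). In G12 males only 1 of the 10 probes was higher, with differences of -0.17 to 0.03. Their SD between probes was 0.22 on average and the SD between mice 0.41, so the mice and not the probes set the error.

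**Figure D5:**
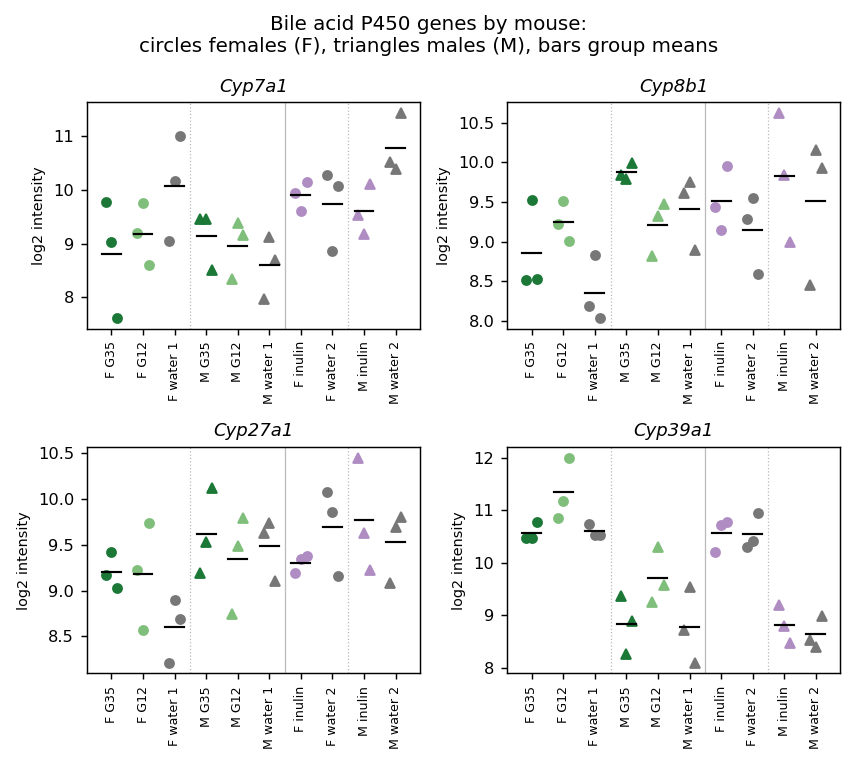
Levels of the 4 measured bile acid and oxysterol P450 genes in every mouse (log2 intensity, vertical axis, a separate scale for each gene), by sex and gavage. Circles are females, triangles males, and bars the means of 3 mice. Cyp39a1 is higher in females in every group and highest in G12 females, and inulin males lie below control 2 males for Cyp7a1.

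G35 and G12 were also set against each other. No P450 gene was called (background 0%) and 5 of 50 had an unadjusted p under 0.05 (4.54% of all genes), with 36 higher and 14 lower with G35 and a median of 0.09. Without G12 male 1 the counts were 28 and 22. Cyp39a1 was lower with G35 than with G12 (-0.82, SE 0.24, adjusted p = 0.616), and Cyp2c23 was higher (0.46, SE 0.14, adjusted p = 0.82).

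The water controls of the experiments differed widely. Control 2 against control 1 called 10 of 50 P450 genes (20.0%), 3 higher and 7 lower, against 22.9% of all genes, so this is no result about the family. The largest difference was in Cyp2d37-ps, a pseudogene, which ran from 9.82 to 10.74 with a median of 10.36 in control 2 mice and from 6.93 to 9.80 with a median of 7.81 in control 1 mice. These did not overlap (2.15, SE 0.42, 4.44-fold, adjusted p = 0.00115). Cyp3a25 (0.91) and Cyp2j9 (0.92) were also higher in control 2, and Cyp4f14 (-0.91), the vitamin D 25-hydroxylase Cyp2r1 (-0.93) and Cyp17a1 (-1.02) were among the lower ones. The call of Cyp17a1 was lost without control 1 female 1 (-0.81, adjusted p = 0.0515). The experiments used separate slides, so experiment and slide cannot be told apart.

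Replicate number moved with the level of Cyp2e1. Cyp2e1, the ethanol-inducible P450, read 14.29 to 14.97 on the replicate 3 array of all 6 groups of the first experiment and 15.49 to 15.89 on the other arrays of those groups. The replicate 3 arrays were on slides 1 and 2. Across all arrays the deviations from group means were most alike for Cyp4f13 and Cyp4f17 (Pearson's r = 0.86 over 30 arrays) and Cyp2c50 and Cyp4v3 (0.85, both in the dim patch). Next came Cyp2d26 and Cyp2d40 (0.84), Cyp2d34 and Cyp2j13 (0.84) and Cyp3a57 and Cyp3a59 (0.83). Over all 1225 pairs r ran from -0.81 to 0.86 with a median of 0.06. These values share arrays, and paralogs may share probe targets, so they are given as a description.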

How the data were processed

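Liver RNA of 30 mice was measured on 1-colour Agilent arrays. The deposited table holds whole-number Cy3 intensities per probe, which the authors took from the scanner images, and the submitters' processing notes name Agilent Feature Extraction without a version; which of its signals was deposited, and any genome build, are not given in the sources used here. Of 15505 probes, 12544 had 1 gene symbol in the platform annotation and 2961 none. The intensities were corrected with normexp (offset 50), quantile normalised and put on a log2 scale in limma 3.58.1 (R 4.3.3), with the probe of highest mean kept per gene.

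One group-means model over the 10 groups (20 residual degrees of freedom) gave 16 contrasts, tested with limma's moderated statistics and Benjamini-Hochberg adjustment over 8996 genes. The number of arrays limits the precision. The fit was tested on simulated data with known changes. The members and lists were chosen with earlier results of these data known, and genes were named by rule: those called, the lowest p per comparison and side, and whole role classes. Alternatives changed background correction, normalisation, filter, probe summary, the limma fit, the replicate number and slide as blocks, and left out arrays. Dim areas were found from neighbouring features, with positions taken from feature numbers at an assumed width of 85. The alternatives on dim areas and on slide without G12 female 2 were chosen after seeing the data. In the first experiment same-numbered arrays deviated together (18 pairs, correlations 0.12 to 0.71), so replicate numbers paired them; those of the second did not (-0.52 to 0.08).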

Additional observations from a re-analysis of the deposited data

How the results depend on the processing

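Precision is limited by 3 mice per group and by slides that few groups share. Leaving out each mouse in turn gave 11 to 15 called P450 genes for females against males in controls, 15 to 19 in gavaged mice, 9 to 13 for control 2 against control 1, and 0 in all 13 comparisons of gavage. The replicate block gave 14 and 19 for the sex comparisons and changed no gavage count. With slide as a fixed block, 1 gene was called for G12 in females. With slide as a fixed block and without G12 female 2, chosen after seeing the data, 2 were called for G35 over both sexes, 2 for G35 in females, 3 for the sex difference of G12 (Cyp2c29, Cyp2d22 and Cyp3a57) and 11 for sex in gavaged mice, where Cyp2c39 (-0.042) and Cyp2c68 (0.059) changed sign. The other alternatives gave 11 to 19 for sex in controls and 9 to 11 for control 2 against control 1. Among the alternative values of called genes, 962 kept direction and call, 67 lost the call and 2 reversed. The causes were not tested.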
